A study of Mus musculus with 39 samples.

Results

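Acute phase proteins are plasma proteins whose synthesis rises or falls within hours to days of infection or injury. The liver makes most of them, but fat cells and the macrophages of fat make some of them too. Their genes are switched on by the cytokines interleukin 6, interleukin 1 and tumour necrosis factor through the transcription factors STAT3, C/EBP and NF-kB, and glucocorticoids add to the response. A total of 9 such genes were followed in epididymal fat, chosen by name from 29411 gene names on the array. They are the serum amyloids Saa3 and Saa1, which bind high density lipoprotein and attract leukocytes, the iron-withholding lipocalin Lcn2, the plasma carriers Orm1 and Orm2 (orosomucoids), haptoglobin Hp, which binds free haemoglobin, the copper-carrying ferroxidase Cp, the protease inhibitor Serpina3n, and Lbp, which binds bacterial lipopolysaccharide.

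RNA of epididymal adipose tissue, the visceral fat pad beside the epididymis, was measured on 39 one-colour Agilent arrays of C57BL/6J mice that were put on their diets at weaning, at 3 to 4 weeks of age. LFC mice (11 arrays) received a low fat diet with 10% of its calories as fat, and HFC mice (10 arrays) a high fat diet with 60% of its calories as fat and added sucrose. HF5, HF20 and HF75 mice (6 arrays each) ate what HFC mice ate, to which an aqueous ethno-botanical formulation, KAL-1, was added at 5, 20 or 75 µg. LFC was sampled at Days 1, 6, 10 and 14 and at Weeks 0, 3, 6, 9, 12, 15 and 18, HFC at all of these but Day 1, and the KAL-1 groups from Week 3 on, with 1 array per diet and time point. Weeks were counted from Day 14 on, so Day 14 and Week 0 mark the same length of feeding. Neither the sex of the mice nor how many mice went into an array is stated, so the time points served as replicates of a diet and p-values measure the spread between them.

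Values are log2 signals from which each array's own 75th percentile was subtracted, called normalised log2 signals below. A value of 0 is the signal of a probe at that percentile, and a difference of 1 is a doubling. The brightest probe of each gene was used, and it was well above background on 39 of 39 arrays for all 9 genes. All 10 adipocyte markers (Adipoq, Plin1 and others) were also well above background on every array, as the tissue label has it. The LFC Week 3 and HFC Week 12 arrays stood apart, with 16431 and 10531 spots marked as outliers against 21 to 387 on the other 37. Results of the 9 genes that rest on them are given with and without them, while fitted differences of the gene lists include them. Arrays from Week 0 on had been scanned before those of Days 1 to 14, so scan date runs with time, while the diets of a time point were mostly scanned together (exceptions were LFC at Week 3 and HF20 and HF75 at Week 6). In whole tissue, fewer cells of a type and less RNA per cell cannot be told apart.

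The members lie on several chromosomes, with Saa3 and Saa1 on chromosome 7, Orm1 and Orm2 on 4, Lcn2 and Lbp on 2, Cp on 3, Hp on 8 and Serpina3n on 12. The serum amyloids and the orosomucoids are families of near neighbours: the chromosome 7 cluster runs Saa3, Saa4, Saa1, Saa2 and the chromosome 4 cluster Orm1, Orm3, Orm2, with no other protein-coding gene between. Paralogues can share a probe's signal, so the array probes of the 2 pairs that moved together are shown here, with the longest run of bases that the probes of a pair have in common in capitals.
Orm1 probe: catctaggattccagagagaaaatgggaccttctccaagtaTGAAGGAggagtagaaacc
Orm2 probe: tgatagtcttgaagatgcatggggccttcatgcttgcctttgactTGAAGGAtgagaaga
Saa1 probe: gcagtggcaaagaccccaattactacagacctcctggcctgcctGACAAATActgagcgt
Saa3 probe: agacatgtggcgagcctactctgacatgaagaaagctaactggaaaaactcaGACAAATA
The Orm1 and Orm2 probes are 60 bases long and shared no run longer than 7 bases, and the Saa1 and Saa3 probes none longer than 8 bases. Whether a probe also binds the transcript of a paralogue was not tested, since the transcripts were not compared with the probes here, and values of these paralogues are uncertain to that extent.

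RefSeq promoters (mouse build GRCm38.p6) were at hand for 6 of the 9 genes, Cp, Lcn2, Orm2, Saa1, Saa3 and Serpina3n. The 250 bases before the transcription start were searched on both strands for 4 motifs of the pathway. These genes had 7 promoters, since Cp had more than 1, and a gene was counted where any of its promoters held the motif. The C/EBP motif TTGCNNAA was found in 5 of the 6 genes (not in Serpina3n), against 9.56% of all 32851 promoters. The NF-kB motif (GGGA and CC with any 4 bases between) was found in 2 of 6 (Cp and Serpina3n), against 17.6% of all, and the STAT motif TTCNNNGAA in 0 of 6, against 7.02% of all. The glucocorticoid half-site TGTTCT was found in 3 of 6 (Cp, Orm2 and Serpina3n), against 16.1% of all. Counted by promoter, as the shares of all promoters are, these were 5, 2, 0 and 3 of 7 in the same order. The promoters of Saa3, Saa1, Lcn2 and Orm2, which held the C/EBP motif and whose genes were higher on HFC than on LFC at Day 10 by over 2 on the log2 scale, are shown in the direction of transcription, with the C/EBP match in capitals.
Saa3, chr7:46715677-46715926, minus strand: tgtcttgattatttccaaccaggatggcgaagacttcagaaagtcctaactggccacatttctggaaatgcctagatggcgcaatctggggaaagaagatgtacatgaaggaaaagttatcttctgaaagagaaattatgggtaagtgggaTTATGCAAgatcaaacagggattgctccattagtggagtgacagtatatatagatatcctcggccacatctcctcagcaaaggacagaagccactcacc
Saa1, chr7:46742981-46743230, minus strand: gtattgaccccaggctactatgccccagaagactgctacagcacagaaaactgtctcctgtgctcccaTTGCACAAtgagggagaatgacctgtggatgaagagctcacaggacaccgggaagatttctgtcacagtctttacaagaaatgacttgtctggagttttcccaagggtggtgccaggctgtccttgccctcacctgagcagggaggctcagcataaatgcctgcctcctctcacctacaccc
Lcn2, chr2:32387740-32387989, minus strand: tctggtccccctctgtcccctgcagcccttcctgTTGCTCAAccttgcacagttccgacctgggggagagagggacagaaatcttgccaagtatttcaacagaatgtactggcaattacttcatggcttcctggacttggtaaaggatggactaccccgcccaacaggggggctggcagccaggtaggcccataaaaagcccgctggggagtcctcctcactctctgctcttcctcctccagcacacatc
Orm2, chr4:63362199-63362448, plus strand: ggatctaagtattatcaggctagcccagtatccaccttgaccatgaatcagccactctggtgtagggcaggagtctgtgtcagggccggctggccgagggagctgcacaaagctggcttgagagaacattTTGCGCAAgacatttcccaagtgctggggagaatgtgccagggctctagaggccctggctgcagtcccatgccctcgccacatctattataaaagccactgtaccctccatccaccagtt
The match lies 99 bases before the start in Saa3, 182 in Saa1, 216 in Lcn2 and 120 in Orm2, where TTGCGCAA reads the same on both strands. These are matches of letters, which say nothing of whether a factor binds there.

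**Figure D1:**
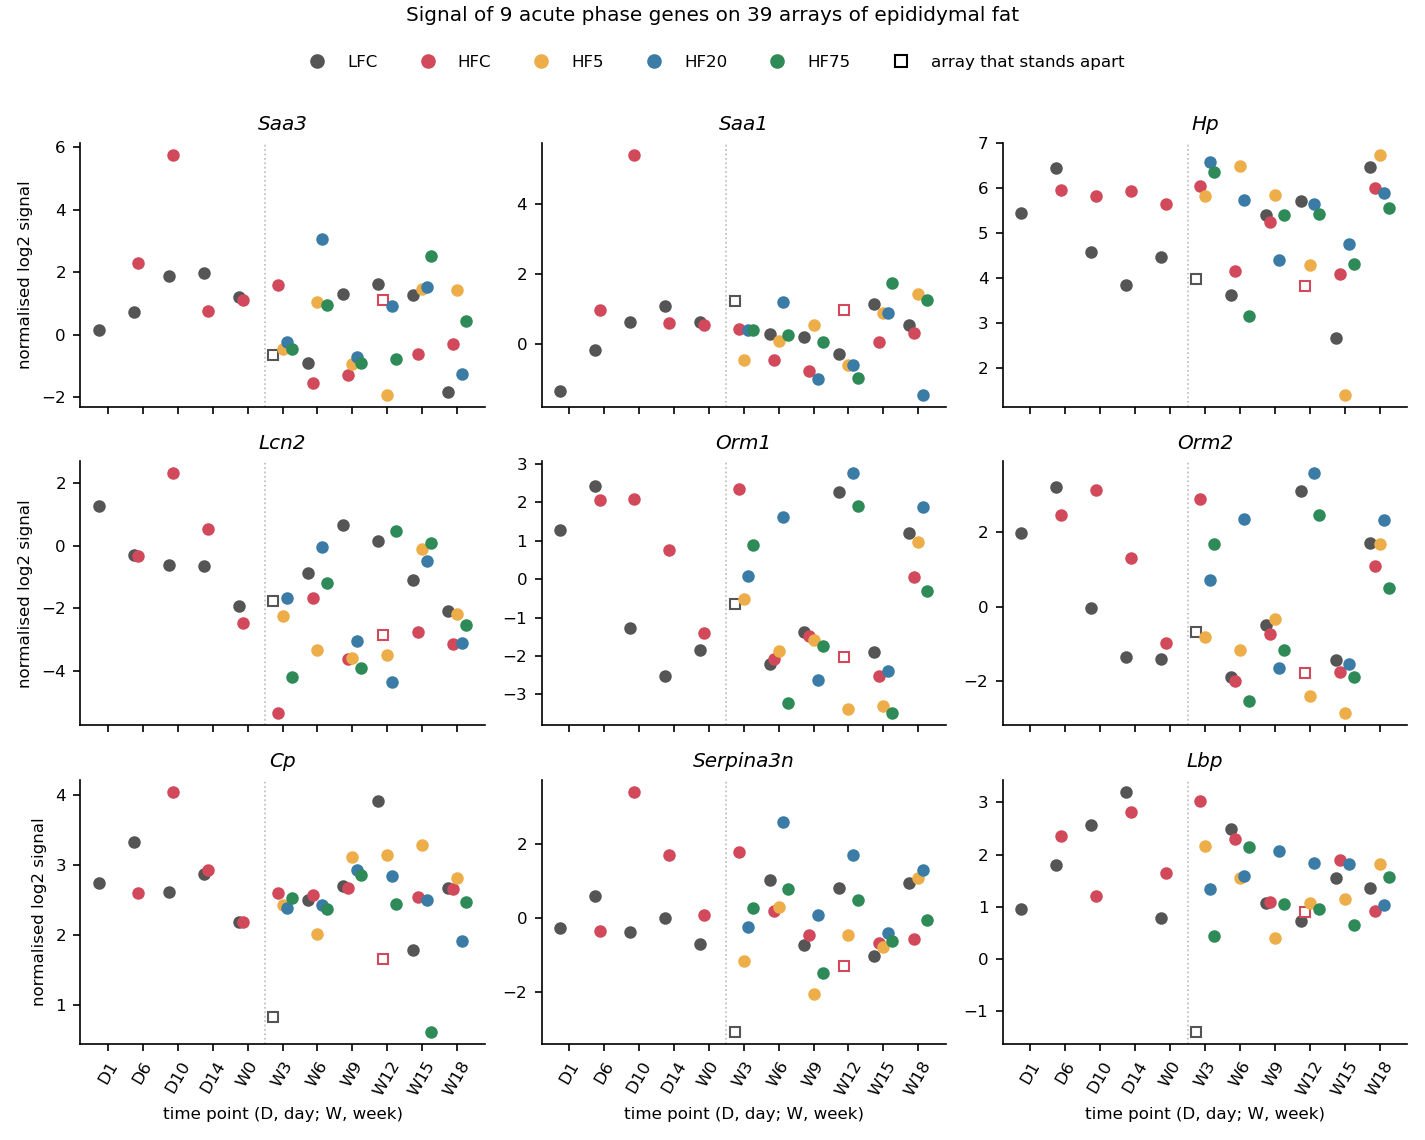
Normalised log2 signal (y axis, own scale per gene) of the 9 genes at each time point (x axis), 1 point per array and coloured by diet, with open squares for the 2 arrays that stood apart and a dotted line before Week 3. The HFC Day 10 array is the highest point for Saa3 (5.75), Saa1 (5.40), Lcn2 (2.30), Cp (4.05) and Serpina3n (3.40).

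The serum amyloids were highest on the high fat diet at Day 10. Saa3, the serum amyloid of fat and macrophages, had normalised log2 signals on HFC of 2.28 at Day 6, 5.75 at Day 10, 0.77 at Day 14 and 1.12 at Week 0. On LFC it had 0.14 at Day 1, 0.71 at Day 6, 1.89 at Day 10, 1.96 at Day 14 and 1.20 at Week 0. The HFC Day 10 value lay above all the others, by 3.86 on the log2 scale over LFC of the same day, and its spot was saturated, so that it is a lower bound. At Day 14 LFC was the higher diet. At Weeks 3 to 18 Saa3 ranged from -1.54 to 1.59 on HFC (median -0.46) and from -1.83 to 1.62 on LFC (median 0.32), and the diets overlapped throughout.

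Saa1, the serum amyloid made mainly by liver, showed the same single high array. On HFC its normalised log2 signals were 0.97 at Day 6, 5.40 at Day 10, 0.60 at Day 14 and 0.55 at Week 0, and on LFC -1.35, -0.19, 0.63, 1.09 and 0.63 at Day 1, Day 6, Day 10, Day 14 and Week 0. The Day 10 difference was 4.77 on the log2 scale, and at the other time points HFC and LFC lay within 1.26 of each other. At Weeks 3 to 18 the range was -0.77 to 0.98 on HFC and -0.29 to 1.24 on LFC. A second Saa1 probe, well above background on 30 of 39 arrays, was also far higher on HFC (2.48) than on LFC (-3.07) at Day 10, although the probes ranked the 37 arrays only loosely alike (Spearman's rho 0.42).

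At Day 10 HFC was higher than LFC for 8 of the 9 genes, by over 2 on the log2 scale for 6 (Saa3, Saa1, Lcn2, Orm1, Orm2 and Serpina3n). Of all probes measured on both arrays 3.83% were higher by over 2. Lbp was the exception, at 1.21 on HFC and 2.57 on LFC. There is 1 array of each diet at Day 10, so this difference has no replicate check.

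Markers of other cells also differed between the Day 10 arrays. The summed level of 10 macrophage markers was 98.2 times the array's 75th percentile signal on HFC, which is the median of all 39 arrays, and 9.63 on LFC, which is the lowest of them. The scavenger receptor Marco and the formyl peptide receptor Fpr2, both of myeloid cells, had their highest values of the 39 arrays there (3.48 and -0.35, against 1.52 and -2.71 on LFC). These 2 genes stand outside that list and are among those most like Saa3 in rank order over the 37 arrays (Spearman's rho 0.62 and 0.63). Their high values beside a high Saa3 are therefore not independent of it. Adipocyte markers summed to 417 on HFC against 309 on LFC, with a median normalised log2 signal over the list of 5.76 against 4.197. Epididymis markers summed to 93.7 against 42.0, while their median was 1.09 against 1.36, with 8 of 11 above background on HFC and 11 of 11 on LFC. Mesothelium markers summed to 62.2 against 52.3, with a median of 1.29 against -0.73. Sum and median went opposite ways for liver markers (31.7 against 4.78, median -5.40 against -4.95) and blood markers (143 against 234, median 3.29 against 2.25). Of the liver genes, albumin (Alb) was higher on HFC (-2.95 against -4.95), and Apoa1 was not above background there. Neutrophil markers were lower on HFC both ways, with sums of 8.46 against 15.05. The part of these cells in the Day 10 values was not tested.

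**Figure D2:**
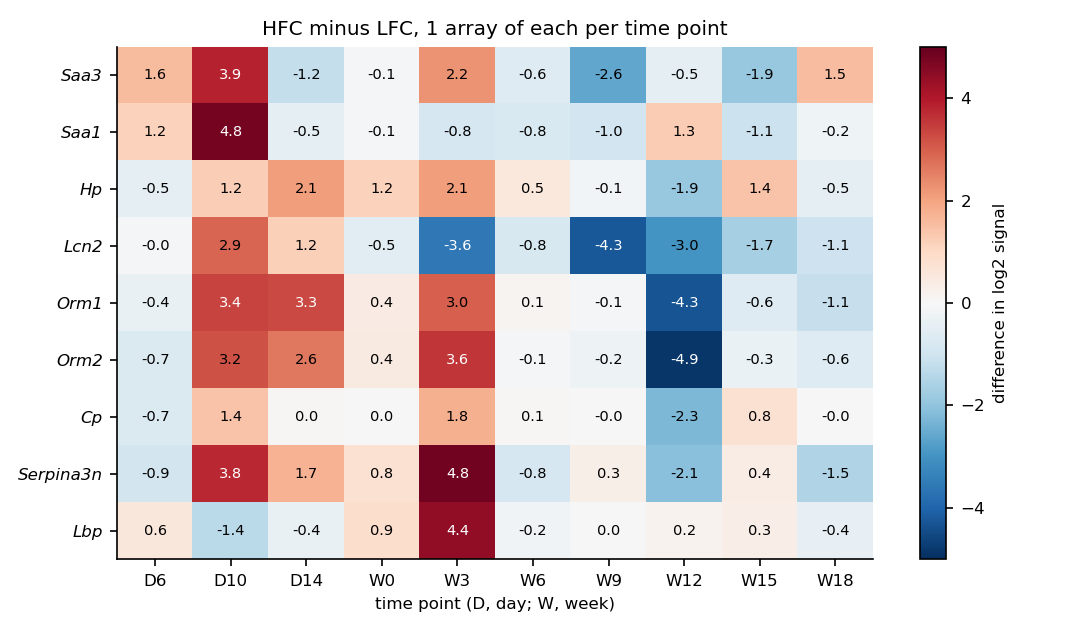
Difference in normalised log2 signal between the HFC and LFC arrays of the same time point (x axis) for each gene (y axis), red where HFC was higher, with the value printed to 1 decimal. HFC was higher for 8 of 9 genes at Day 10 and 7 of 9 at Week 3, and lower for 8 of 9 at Week 18 and, for Lcn2, at all 6 time points from Week 3 on.

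No difference between the diets over the 10 time points they share passed the test. With the time point as a block, 0 of 9 passed an adjusted p of 0.05 (limma with Benjamini-Hochberg adjustment over all 29169 probes tested, of which 0% passed), and 0 of 9 had an unadjusted p under 0.05, as 3.05% of probes did. The fitted HFC minus LFC difference was positive for 8 genes and negative for Lcn2, with a median of 0.29 beside 0.03 over all probes. It was 0.23 ± 0.56 (SE) for Saa3, 0.28 ± 0.50 for Saa1, 0.55 ± 0.37 for Hp and 0.64 ± 0.62 for Serpina3n on the log2 scale. Without Day 10 the sign turned for 4 genes, to -0.17 for Saa3, -0.22 for Saa1, -0.03 for Orm2 and -0.04 for Cp. Lcn2 went from -1.08 (SE 0.61) to -1.53 without Day 10 (p = 0.0127, adjusted p = 1.00 by limma) and to -0.53 without the 2 arrays that stood apart, which also took Lbp from 0.40 to -0.07.

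The counts of genes at Weeks 3 and 12 include the 2 arrays that stood apart. At Week 3, where the LFC array stood apart, 7 of 9 were higher on HFC. At Week 12, where the HFC array did, 2 of 9 were higher. Outside these and Day 10, the count was 3 at Day 6, 6 at Day 14, 6 at Week 0, 3 at Week 6, 2 at Week 9, 4 at Week 15 and 1 at Week 18. On the LFC Week 3 array Cp (0.83), Serpina3n (-3.07) and Lbp (-1.39) had their lowest LFC values from Week 3 on, and on HFC Week 12 Hp (3.82), Cp (1.66), Serpina3n (-1.29) and Lbp (0.91) had their lowest HFC values of that period.

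Lcn2, the lipocalin that binds bacterial siderophores and that neutrophils, epithelia and fat cells make, had the largest diet difference of the 9 genes from Week 3 on. On LFC its normalised log2 signals from Week 3 on ran from -2.09 to 0.65 with a median of -0.98. On HFC they ran from -5.35 to -1.68 with a median of -2.99, on HF5 from -3.59 to -0.10, on HF20 from -4.36 to -0.05 and on HF75 from -4.20 to 0.47. LFC was the highest of the 5 diets on average, and each high fat group still overlapped it. The means ± SD were -0.84 ± 1.07 on LFC, -1.89 ± 1.99 on HF75, -2.12 ± 1.67 on HF20, -2.49 ± 1.32 on HF5 and -3.23 ± 1.22 on HFC (n = 6 each), and no neighbouring pair in this order differed by more than its pooled SD.

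The 4 high fat groups together lay below LFC in Lcn2 by 1.59 on the log2 scale (SE 0.59, 95% confidence interval -2.82 to -0.37), a 3.01-fold lower signal, at 5 of 6 time points. The unadjusted p was 0.0131 and the adjusted p 0.757 by limma over 31450 probes. It was the 1 gene of 9 with an unadjusted p under 0.05, a threshold that 6.10% of all probes passed, while 0% passed the adjusted one. Leaving out Week 9 took the difference to -1.07 (p = 0.109), and leaving out the 2 arrays that stood apart to -1.61 (p = 0.0282). Of all 9 genes 5 were higher and 4 lower (4 and 5 with quantile scaling or normexp, 6 and 3 with median scaling), the others from -0.39 for Orm1 to 0.49 for Hp, and all intervals included 0. Saa1 was lower at 6 of 6 time points, with a difference of -0.33 ± 0.35 (SE). Lbp went from 0.49 to -0.01 without the 2 arrays that stood apart.

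Of 9 neutrophil markers tested 7 were lower on the high fat diets at an unadjusted p under 0.05, as 6.10% of probes differed, with a median difference of -1.64 and 0 past the adjusted threshold. Of 11 epididymis markers 1 was lower at that p, with a median of -1.30, and 0 passed after adjustment. From Week 3 on the neutrophil markers summed to 10.52 to 65.7 times the 75th percentile signal on LFC, 3.82 to 28.8 on HFC, 4.87 to 64.4 on HF5, 1.95 to 104 on HF20 and 1.46 to 50 on HF75. The epididymis markers summed to 0.158 to 84.1 on LFC, 0.0508 to 13.3 on HFC, 0.0899 to 18.1 on HF5, 0.0899 to 48.1 on HF20 and 0.0490 to 13.7 on HF75. Each marker of both lists was above background on some arrays, with 5 to 9 of 9 neutrophil and 0 to 11 of 11 epididymis markers on an array. Their part in the Lcn2 difference was not tested.

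The diet difference of Lcn2 was lower late than early, without passing the adjusted threshold. The HFC minus LFC differences were -0.04 at Day 6, 2.91 at Day 10, 1.19 at Day 14 and -0.54 at Week 0, and -3.58, -0.81, -4.25, -2.99, -1.67 and -1.05 at Weeks 3, 6, 9, 12, 15 and 18. All 6 late differences lay below all 4 early ones. The late minus early difference of differences was -3.27 on the log2 scale (SE 0.84, 95% confidence interval -5.12 to -1.42), with an unadjusted p of 0.00247 and an adjusted p of 0.841 by limma. Lcn2 was the 1 gene of 9 with an unadjusted p under 0.05, which 5.14% of 29169 probes also had, and 0% passed after adjustment. It was -2.59 without Day 10 and -2.82 without the pairs of Weeks 3 and 12, which hold the 2 arrays that stood apart, with unadjusted p of 0.00954 and 0.0128 by limma.

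**Figure D3:**
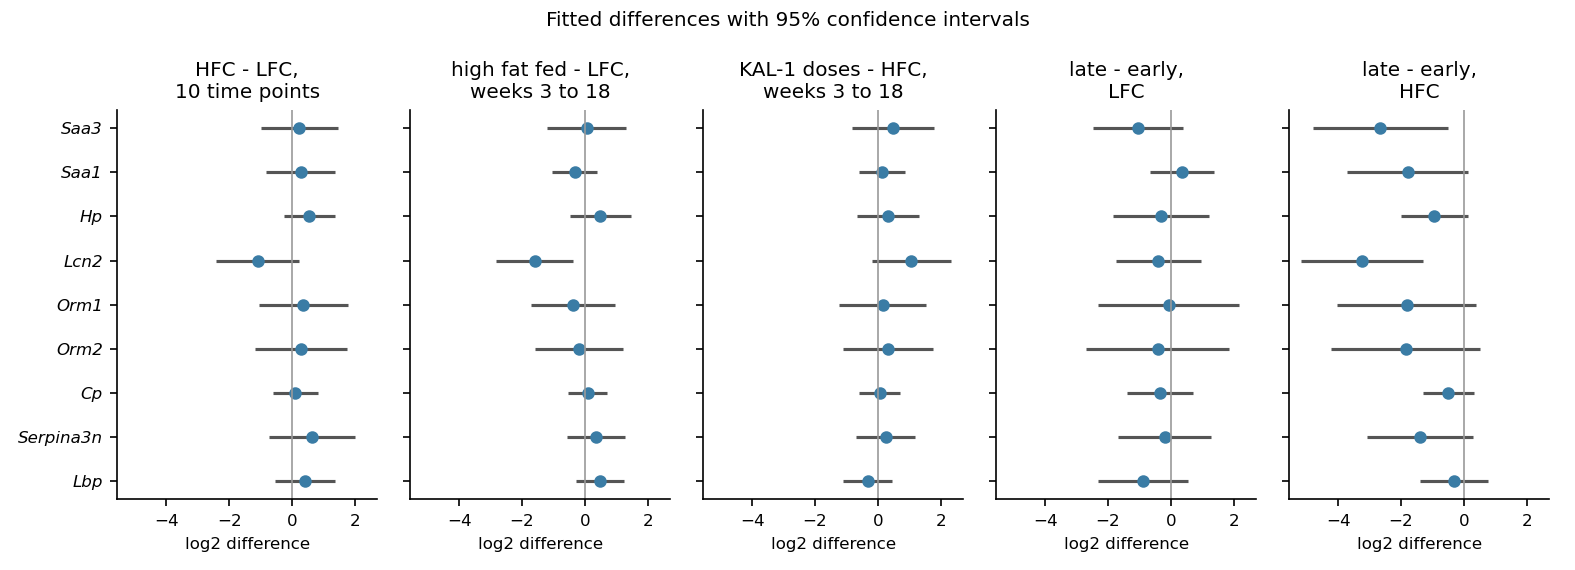
Fitted log2 differences (points) with 95% confidence intervals (lines) for the 9 genes in 5 comparisons: HFC minus LFC over 10 time points, the 4 high fat groups minus LFC, the KAL-1 doses minus HFC, and weeks 3 to 18 minus the earlier time points on LFC and on HFC. The intervals of Lcn2 exclude 0 in the comparison of the high fat groups with LFC (-1.59) and of late with early on HFC (-3.24), and that of Saa3 in the latter (-2.66).

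On the high fat diet all 9 genes were lower on average from Week 3 on than before. The fitted late minus early difference on HFC had a median of -1.79 on the log2 scale beside 0.03 over all probes. By limma over 30582 probes 0 of 9 passed an adjusted p of 0.05, as did 0% of probes, and 2 of 9 (Lcn2 and Saa3) had an unadjusted p under 0.05, as 16.8% of probes did. Lcn2 had 4 early HFC values of -0.34, 2.30, 0.54 and -2.47 at Days 6, 10 and 14 and Week 0, and the Week 0 value lay inside the late range. Its difference was -3.24 (SE 0.88, 95% confidence interval -5.18 to -1.30, p = 0.00371, adjusted p = 0.215), with all 6 late arrays below the early mean. For Saa3 it was -2.66 (SE 0.97, -4.80 to -0.51, p = 0.0198, adjusted p = 0.249), also with all 6 below. Of 9 mesothelium markers 4 were lower late on HFC at an unadjusted p under 0.05 (median -1.64), and of 10 adipocyte markers 2 were (median -0.79), with 0 past the adjusted threshold in either list. Their part in the members' differences was not tested.

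Week 0 is the 1 early HFC array of the same scan period as the late ones. Against it alone the late minus early difference was -0.76 for Lcn2 and -1.29 for Saa3, values with no test because they rest on 1 early array, and it was positive for Orm1, Orm2, Cp and Lbp at 0.46, 0.60, 0.26 and 0.04. Day 14 and Week 0, the same length of feeding in different scan periods, gave Lcn2 at 0.54 and -2.47 on HFC and at -0.65 and -1.92 on LFC. Without Week 0 it was -4.06 for Lcn2, the 1 case of a left-out time point in which a member passed (adjusted p = 0.0393 by limma). Many other probes passed there as well, and their count is given in the closing section. Without Day 10 the late minus early difference was -2.48 for Lcn2 (p = 0.0128), -1.57 for Saa3 (p = 0.0564) and -0.62 for Saa1, which had been -1.79. Time on the diet, age and scan period cannot be told apart across the whole course.

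On the low fat diet no member passed in the same comparison. A total of 1 of 9 genes (Saa1, 0.35) was higher and 8 were lower late (2 and 7 with quantile scaling, 4 and 5 with normexp background), with a median of -0.34 beside -0.09 over all probes. Without the LFC Week 3 array, which stood apart, Serpina3n turned to 0.35, while Cp (-0.03) and Lbp (-0.42) stayed lower late. No other member changed its sign without that array. By limma over 30421 probes 0 of 9 passed either threshold, where 0.490% of probes passed the adjusted and 5.52% the unadjusted one. Saa3 had the largest size at -1.04 ± 0.66 (SE), and Lcn2 differed by -0.40 ± 0.62. Neutrophil markers were higher late on LFC, with 6 of 9 higher at an unadjusted p under 0.05 and a median of 2.42, none after adjustment.

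The orosomucoids Orm1 and Orm2, which carry drugs and lipids in plasma, varied widely within each diet. Orm2 ran from -2.86 to 3.58 and Orm1 from -3.50 to 2.76 over the 37 arrays in normalised log2 signal. On HFC Orm2 was 2.47, 3.14, 1.29 and -0.97 at Days 6, 10, 14 and Week 0, and on LFC 1.98, 3.20, -0.03, -1.36 and -1.41 at Days 1, 6, 10 and 14 and Week 0. From Week 3 on it ran from -1.99 to 2.90 on HFC and from -1.88 to 3.09 on LFC. The diets overlapped in both periods.

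Haptoglobin was bright everywhere and varied with the orosomucoids. Its normalised log2 signals were 5.95, 5.82, 5.93 and 5.64 on HFC at Days 6, 10, 14 and Week 0, and 5.44, 6.43, 4.57, 3.84 and 4.47 on LFC at Days 1, 6, 10 and 14 and Week 0. From Week 3 on the lowest, median and highest were 3.82, 4.70 and 6.05 on HFC and 2.66, 4.68 and 6.47 on LFC. The spot was saturated on 14 of 39 arrays, 3 of them among the 4 early HFC ones, so high values of Hp are understated and their differences compressed. The late minus early difference on HFC was -0.94 (SE 0.48, p = 0.0769), and the 4 late arrays below the early mean (Weeks 6, 9, 12 and 15) also lay below every early array.

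Cp, the copper oxidase that loads iron onto transferrin, ran from 0.62 to 4.05 over the 37 arrays. The extremes were HFC at Day 10 (4.05) and HF75 at Week 15 (0.62). A second Cp probe was well above background on 38 of 39 arrays and ranked the arrays differently (Spearman's rho 0.42 with the one used). At Day 10 it stood at -1.78 on HFC and -1.82 on LFC, so the Day 10 difference of 1.43 of the brighter probe was not seen there.

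Serpina3n, an inhibitor of neutrophil proteases that fat and liver secrete, was 3.40 on HFC at Day 10 and 1.71 at Day 14, against -0.38 and -0.02 on LFC. From Week 3 on it ran from -1.29 to 1.76 on HFC and from -3.07 to 1.03 on LFC, where the lowest value is the Week 3 array that stood apart. Lbp, the carrier that hands lipopolysaccharide to the receptor complex of Cd14 and Tlr4, was 2.36, 1.21, 2.81 and 1.65 on HFC and 0.95, 1.79, 2.57, 3.20 and 0.78 on LFC at the early time points. At Weeks 3 to 18 Lbp ran from 0.91 to 3.03 on HFC and from -1.39 to 2.48 on LFC, where the lowest value is the same Week 3 array, and both genes overlapped between the diets.

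No difference between the KAL-1 groups and HFC passed the test for any of the 9 genes. Over Weeks 3 to 18 the 3 doses were averaged and set against HFC, and 8 differences were positive and 1 negative (Lbp). These include the HFC array that stood apart. Leaving out its time point turned Orm1 to -0.31, Orm2 to -0.22, Cp to -0.17 and Serpina3n to -0.08. Saa3, Saa1, Hp and Lcn2 then stayed positive and Lbp negative. With every time point kept and median scaling, all 9 were positive. With the mean over all probes of a gene, Saa1 turned to -0.41 and Cp to -0.37. By the brightest probes and the main scaling the median was 0.25 on the log2 scale beside -0.02 over all probes. By limma over 31450 probes 0 of 9 passed the adjusted or the unadjusted threshold, where 0% and 1.75% of probes did. Lcn2 was higher than on HFC by 1.07 (SE 0.61, 95% confidence interval -0.20 to 2.33, p = 0.0945) at all 6 time points, towards the LFC level. All 10 adipocyte markers were higher than on HFC too (median 0.46), with 0 at an unadjusted p under 0.05, and their part was not tested. Because the same HFC arrays enter this comparison and the one with LFC, a low HFC value moves both.

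The single doses gave no call either. For HF5, 0 of 9 genes passed the adjusted or unadjusted threshold where 0% and 3.42% of probes did, and the differences ran from -0.67 for Orm1 to 0.74 for Lcn2. For HF20 the shares were 0% and 4.84% of probes, with 7 genes higher and 2 lower (9 and 0 with median scaling) and a median of 0.72 beside -0.07. The largest were Orm2 at 1.34 (SE 0.85, interval -0.42 to 3.11), Orm1 at 1.17, Lcn2 at 1.11 and Serpina3n at 1.01 (SE 0.56, interval -0.15 to 2.17, p = 0.0847, higher at 5 of 6 time points). These depended on single time points: leaving out 1 at a time took Orm2 from 0.54 (without Week 12) to 2.05 (without Week 3), Orm1 from 0.45 to 1.86 and Serpina3n from 0.62 to 1.62 by the same 2 omissions, and Lcn2 from 0.60 (without Week 3) to 1.64 (without Week 12). The lowest p was that of Serpina3n without Week 3, at 0.000611 unadjusted and 0.146 adjusted by limma. Of the marker lists on HF20, 8 of 10 adipocyte markers lay above HFC (1 at an unadjusted p under 0.05, median 0.57), as did 9 of 11 epididymis markers (2 at that p, median 1.53), and their part was not tested. Serpina3n on HF20 ran from -0.40 to 2.58 with a median of 0.69, against a median of -0.52 on HFC, and the groups overlapped. For HF75 the shares were 0% and 1.50% of probes, and Lcn2 again had the largest size at 1.34 (SE 0.75, interval -0.20 to 2.89), from 0.95 without Week 12 to 1.67 without Week 9. With the mean over all probes of a gene, Saa1 differed from HFC by -1.04 and Cp by -0.23 on HF20. On HF75 Cp then differed by -0.73 (p = 0.0206, adjusted p = 0.9998 by limma). The intervals are wide, so that these p-values do not show that the doses and HFC were alike, and no order of the 3 doses was tested.

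For none of the 9 genes did neighbouring diets in the order of means from Week 3 on differ by more than their pooled SD. HF20 had the highest mean of Saa3 (0.54), Hp (5.50), Orm1 (0.22), Orm2 (0.97) and Serpina3n (0.84), HF5 that of Cp (2.80), HFC that of Lbp (1.69) and LFC those of Saa1 (0.52) and Lcn2 (-0.84). HF5 had the lowest mean of Orm1 (-1.62), Orm2 (-0.98) and Serpina3n (-0.52). HFC had the lowest of Saa3 (-0.18) and Lcn2 (-3.23).

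The genes of the signals upstream gave a late minus early difference of the other sign. Of 24 genes of cytokine and NF-kB signalling 9 were higher on HFC from Week 3 on than before at an unadjusted p under 0.05 (beside 16.8% of probes) and 0 lower, with a median difference of 1.58 beside 0.03 over all probes, while the 9 acute phase genes had a median of -1.79. The 3 smallest p belonged to the transcription factor Stat3 (1.51, p = 0.00251), the NF-kB inhibitor Nfkbia (2.14, p = 0.00665) and the cytokine Lif (2.16, p = 0.00794), and 0 of 24 passed after adjustment. On LFC 18 of 24 had a positive late minus early difference (median 0.50 beside -0.09), of which 1 had an unadjusted p under 0.05 (Tlr4, 0.83, p = 0.0333) beside 5.52% of probes. For the late minus early difference of HFC minus LFC, 4 of 24 were higher at an unadjusted p under 0.05 beside 5.14% of probes, with a median of 1.35 beside 0.15, and 0 passed after adjustment. Scan period runs with these differences as well. The median normalised log2 signal of the 24 genes on HFC was 0.28, 0.42 and 0.96 at Days 6, 10 and 14. At Week 0, the early array of the same scan period as the late ones, it was 2.65. That lay inside the late HFC range of 0.50 to 3.05. On LFC it was 0.21, 0.77, 2.64, 2.75 and 2.51 at Days 1, 6, 10 and 14 and Week 0.

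Averaged over time points, 1 signalling gene or none differed between diets at an unadjusted p under 0.05. On HFC against LFC, Osm, a cytokine of the interleukin 6 family, was lower by 1.46 (p = 0.00796, adjusted p = 0.998), and the other 23 had an unadjusted p above 0.05. In the 4 high fat groups against LFC the 1 of 24 was the glucocorticoid receptor Nr3c1, higher by 0.50 (p = 0.0467). For HF20 against HFC it was Lif, lower by 1.20 (p = 0.0306), and for HF5, HF75 and the mean of the doses it was 0 of 24.

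Of 23 other acute phase genes on the array 19 or 20 were tested. On HFC from Week 3 on 5 were higher and 2 lower than before at an unadjusted p under 0.05 (0 adjusted, beside 16.8% of probes). Of all 20 on HFC 7 had a positive difference, with a median of -0.35 beside 0.03 over all probes. Among the smallest p were those of the metallothionein Mt2 (2.0, p = 0.00666) and the iron hormone Hamp (3.19, p = 0.00945), both higher late. On the high fat diets against LFC 4 of 20 were lower and 0 higher at an unadjusted p under 0.05, beside 6.10% of probes. The fibrinogen chains Fgg (-3.26, p = 0.000607) and Fgb (-2.26, p = 0.0246) and the inter-alpha-trypsin inhibitor chain Itih3 (-1.49, p = 0.00920) had the smallest p, and none passed after adjustment (0.757 was the lowest adjusted p). Over 10 time points the 3 of 19 lower on HFC at that p (beside 3.05% of probes) were Itih4 (-1.09, p = 0.00226), Itih3 (-1.32, p = 0.0387) and Fgg (-1.76, p = 0.0497). Fgb also stands in the liver marker list, of which 6 of 7 tested genes had a negative difference on the high fat diets (median -1.28), 1 of them at an unadjusted p under 0.05. The LFC Week 3 array, which stood apart, is among those compared with the high fat diets here. Over the spots left in, its median normalised log2 signal was 1.36 for the other acute phase genes and 1.96 for the liver list. The highest medians of the 37 arrays were -1.57 and -2.59. The differences of these lists were not fitted without that array, so how far they rest on it was not tested.

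**Figure D4:**
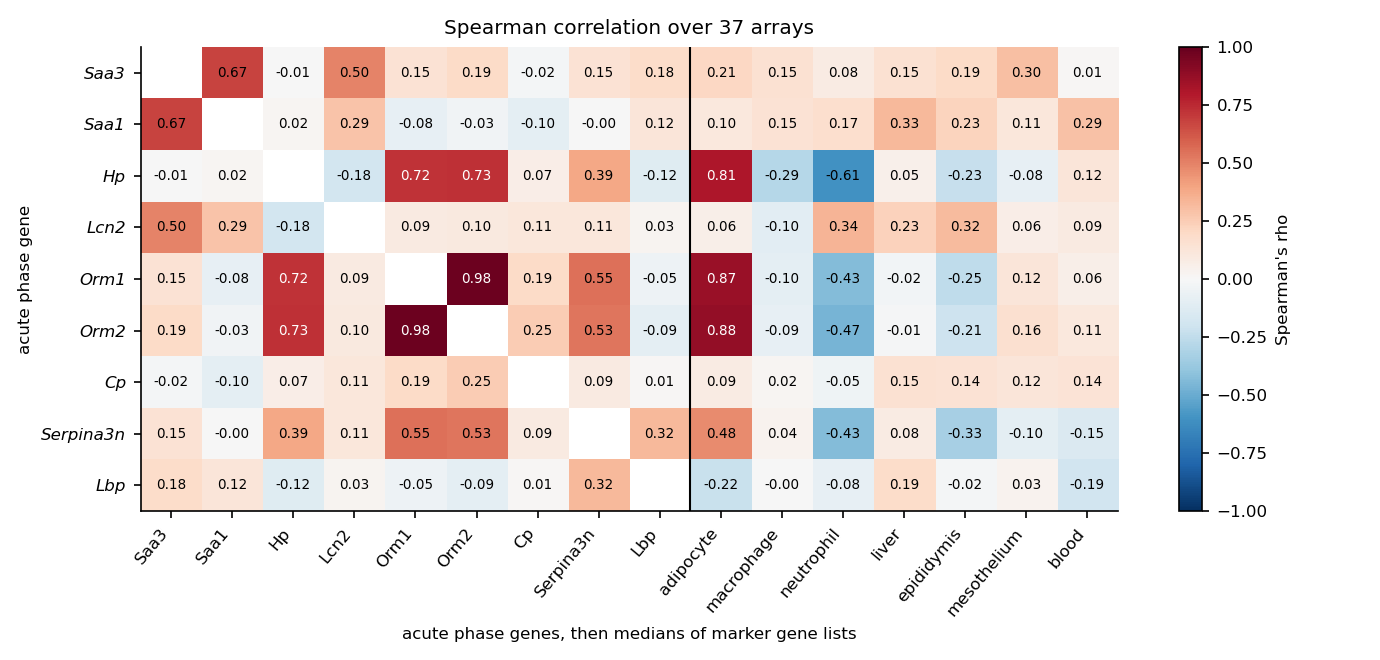
Spearman's rho over 37 arrays between the 9 genes (rows) and, to the left of the line, the same genes or, to the right, the median of each marker list (columns), red for positive and blue for negative values. The block of Hp, Orm1 and Orm2 (0.72 to 0.98) and its relation to the adipocyte list (0.81 to 0.88) stand out, and Saa3 pairs with Saa1 (0.67) and Lcn2 (0.50).

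With all arrays pooled, Orm1, Orm2, Hp and Serpina3n were related to each other or to the adipocyte markers, and Saa3 to Saa1 and Lcn2. Among the arrays of low Orm2, described below, the relations of Serpina3n to Orm1, Orm2 and the adipocyte list were negative. Over the 37 arrays, 99 relations were computed, 36 between members and 63 of members with marker lists, and permutation p were adjusted over all 99. Of the 36 pairs 7 passed at an adjusted p of 0.05, all positive, with rho from -0.18 to 0.98 and a median of 0.11. Diets and time points are pooled in these arrays, so values within time points, centred on each time point's mean (36 arrays), are given beside them.

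Orm1 and Orm2 followed each other almost exactly, with Pearson's r 0.98 and Spearman's rho 0.98 (permutation adjusted p of 0.000165 and 0.000141, the smallest they can give), 0.95 within time points, and r 0.98 without the 2 arrays farthest out. Hp followed both, with rho 0.72 and 0.73 (r 0.70 and 0.71). Serpina3n did so less closely, with rho 0.55 for Orm1 (0.73 within time points) and 0.53 for Orm2 (0.71). The adipocyte marker list, which holds none of the members, was related to Orm2 at rho 0.88 (r 0.90, 0.86 within time points, r 0.90 without the 2 farthest), to Orm1 at 0.87, to Hp at 0.81 and to Serpina3n at 0.48 (adjusted p = 0.0248). The neutrophil list was related to Hp at rho -0.61 (adjusted p = 0.000742) and to Orm2 at -0.47 (adjusted p = 0.0296), and within time points at -0.36 and -0.22.

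The values of Orm2 fell on both sides of a gap between -0.03 and 0.49, with 20 arrays below and 17 above, so the relations are also given within each side, as descriptions with no test. Orm1 and Orm2 had rho 0.89 below and 0.99 above the gap, and Orm2 and the adipocyte list 0.57 and 0.44. Hp and Orm2 had rho 0.75 below but -0.24 above, where the Hp spot was saturated on 13 of 17 arrays against 1 of 20 below, and Orm2 and Serpina3n -0.34 below and 0.44 above. Orm1 and Serpina3n had rho -0.28 below and 0.43 above the gap, and Serpina3n and the adipocyte list -0.46 below and 0.27 above. Within the scan periods Orm2 and the adipocyte list had rho 0.89 on the 7 arrays of Days 1 to 14. On the 30 arrays of Weeks 0 to 18 it was also 0.89. Serpina3n and the adipocyte list had rho 0.07 on Days 1 to 14 and 0.47 on Weeks 0 to 18.

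Saa3 and Saa1 formed the other set, with rho 0.67 and r 0.76 (permutation adjusted p of 0.000141 and 0.000165), 0.72 within time points. Without HFC Day 10 and HF5 Week 12, the arrays farthest out in Saa3, r was 0.61. Saa3 and Lcn2 had rho 0.50 (r 0.54, adjusted p = 0.0182 and 0.00540), which was 0.29 within time points and r 0.40 without the 2 farthest. Neither serum amyloid was related to a marker list after adjustment. Lcn2 was related to the epididymis list by r at 0.45 (adjusted p = 0.0419) but not by rho at 0.32 (adjusted p = 0.264), and r was 0.33 without HFC Day 10 and HFC Week 3. Cp and Lbp had no relation that passed.

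**Figure D5:**
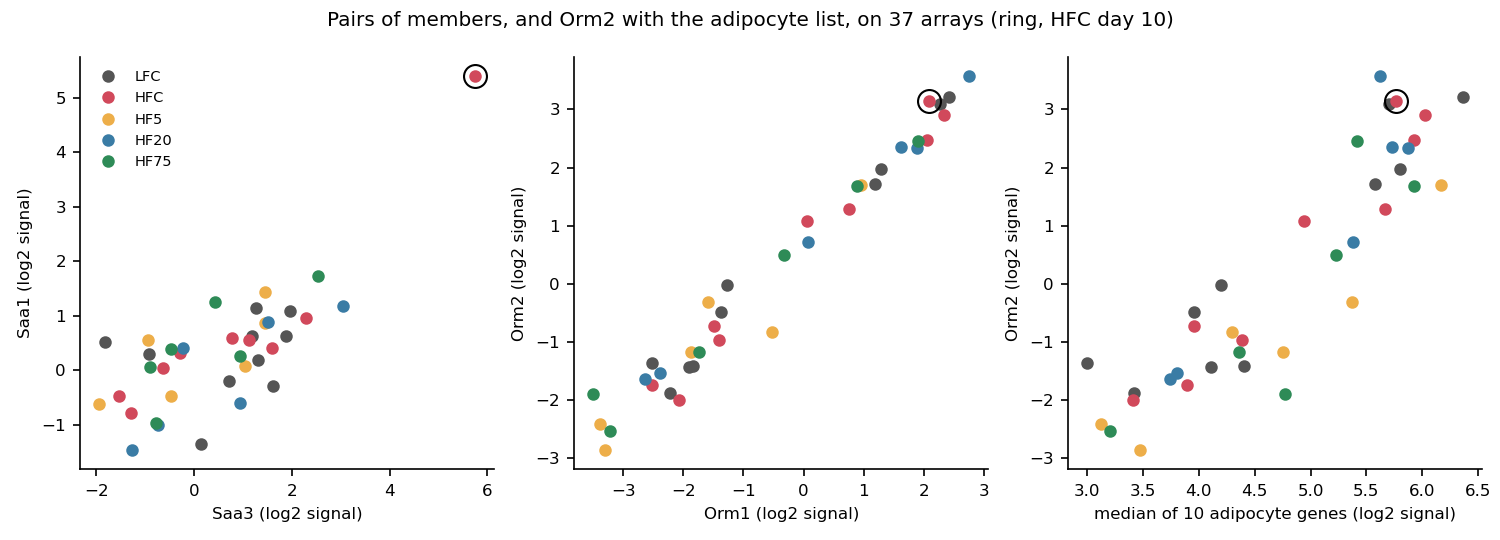
Normalised log2 signal of Saa1 against Saa3 (left), Orm2 against Orm1 (middle) and Orm2 against the median of 10 adipocyte markers (right) on 37 arrays, coloured by diet, with a ring around HFC Day 10. In the left panel that array lies far from the rest (r 0.76, and 0.61 without it and HF5 Week 12), while Orm1 and Orm2 lie along a line (r 0.98).

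The genes whose rank order over the 37 arrays was most like that of a member were named by Spearman's rho, out of 25022 probes well above background on at least 30 of them. For Orm1 and Orm2 the first was Gpt, alanine aminotransferase, at 0.97 for each, followed by the triglyceride synthase Dgat2 (0.96 and 0.97), and the third was 1110006G14Rik (0.95) for Orm1 and Proca1 (0.96) for Orm2. For Hp they were Ifi27l2a (0.89), the adipokine Adipoq (0.89) and Apol6 (0.86). For Serpina3n the first was EG238395, a predicted gene similar to the Serpina3 family (0.89), followed by the glycogen phosphorylase Pygb (0.86) and 1110049F12Rik (0.85). All of these had rho of 0.77 or above within time points.

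For Lcn2 the genes were the complement factor Cfi (0.82, 0.68 within time points), the membrane protein Prom1 (0.80) and the adaptor subunit Ap1s2 (0.79). The likeness was weaker for the others. For Saa3 they were Rasl2-9 (0.65), Gm13020 (0.64) and Fpr2 (0.63), for Saa1 Gm2680 (0.58), Grk6 (0.57) and Cep350 (0.56, which fell to 0.19 within time points), for Cp Dennd2a (0.69), 4932417I16Rik (0.64) and 2700007P21Rik (0.62), and for Lbp Gm5702 (0.69), Ccdc3 (0.67) and Dbndd2 (0.66). These are descriptions of rank order on shared arrays, with no test.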

How the data were processed

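Gene expression in epididymal adipose tissue was measured on 39 one-colour (Cy3) Agilent arrays. The deposited files hold spot intensity values, per the file headers made with Feature Extraction 10.5.1.1 (the submitters' processing notes name 9.1) and background-subtracted within each array, with probe annotation on mm9. The authors also deposited log2 values set against LFC of each time point, made in GeneSpring GX, which served as an alternative and matched the differences computed here with r of 0.992 to 1.00 over 40628 probes on 28 arrays.

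The processed intensity was taken to log2, and the 75th percentile of each array was subtracted. Outlier spots were left out. Tested probes had to be well above background on 10 or more of 20 arrays (HFC against LFC), 6 of 30 (Weeks 3 to 18), 5 of 11 (LFC) or 4 of 10 (HFC). Differences were tested two-sided with limma 3.58.1 in R 4.3.3 and adjusted by Benjamini-Hochberg over all probes tested. Comparisons of diets were blocked by time point, which pairs the diets. Correlations used 100000 permutations in Python 3.11.15 with scipy 1.17.1. The number of arrays limits the precision.

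The 9 genes are described by their brightest probe over the 37 arrays other than LFC Week 3 and HFC Week 12, with other probes as a check. Named besides were the 3 genes most like each by Spearman's rho, the up to 3 genes of smallest p per list and comparison, and marker genes that move with a result. One gene that this rule names is not reported here. The members and all lists were chosen with earlier results of these data known. Alternatives were the scaling (quantile, median), normexp background (offset 50), outlier spots kept, other filters, array weights, slide as a random block, no time block, single time points or the 2 arrays left out, Week 0 alone as the early array, the mean over probes, the authors' table and the methods' t-test. In HFC against LFC and its change with time, leaving out the 2 arrays also left out the other diet's arrays of Weeks 3 and 12. The fits were tested on simulated data. The sequences come from the array files and from RefSeq (GRCm38.p6).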

Additional observations from a re-analysis of the deposited data

Results flagged for a closer look

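Of 36 sets of 6 to 10 arrays of 1 gene and diet, 4 held a single array far from the others by Dixon's test, which by chance marks about 1 in 20. LFC, with 11 arrays, was not tested. On HFC the Day 10 array was far above the other 9 for Saa3 (5.75), Saa1 (5.40) and Cp (4.05, not seen in the second Cp probe), all 3 on the same array. On HF75 the Week 15 array was far below the other 5 for Cp (0.622).

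The HFC minus LFC difference of Lcn2 differed between the periods, by -3.27 on the log2 scale (limma p = 0.00247 before and 0.841 after adjustment over all probes), and it was lower in 6 of 6 late pairs than the early mean.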

How the results depend on the processing

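Of 1476 differences of single genes under other settings, 1343 kept their sign, 133 changed it and 5 newly passed an adjusted p of 0.05. The sign could not change where the fitted difference stays the same by design. These settings were the other probe filters (81 values each), no time point block (54) and the methods' t-test (9), and they are among the 1343. Array weights changed the sign of 19 of 81 values and the mean over all probes of a gene that of 9 of 18. Among differences larger than their SE, 7 turned: Lbp in the high fat groups against LFC (-0.0125 without the 2 arrays that stood apart, and -0.0447 without Week 3 to 0.70 without Week 6), Lbp on LFC (0.19) and Orm1 (0.46), Orm2 (0.60) and Cp (0.26) on HFC with Week 0 as the 1 early array, and Cp on HFC as the mean of its probes (0.0892). Late against early on HFC, array weights took Saa3 (-3.39), Lcn2 (-3.29), Orm1 (-3.02) and Orm2 (-3.02) past the threshold, and leaving out Week 0 did so for Lcn2 (-4.06). Many other probes passed under these settings too, as counted in the next paragraph, so the calls are not particular to these genes. The cause was not tested.

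Late against early on LFC, 149 of all probes passed, against 97 with quantile scaling, 0 with normexp (796 at an unadjusted p under 0.05), 82 with outlier spots kept, 40 with probes above background on every array, 324 with array weights, 1 with Week 0 as the early array and 46 to 210 with single time points left out. Late against early on HFC, it was 0 of 30582 (5152 unadjusted), and it was 1 with quantile scaling, 4 with median scaling, 7204 with array weights, 4 with Week 0 as the early array and 0 to 745 with single time points left out (745 without Week 0, 1 without Week 3). For the mean of the KAL-1 doses it was 0 to 1 (1 without Week 3). The other 6 comparisons gave 0 under every setting run, as did the methods' t-test of HFC against LFC over 10 time points (928 before adjustment, 0 of the 9 genes). Median scaling shifted the median of all probes by up to 0.32 and normexp by up to 0.40. All 9 genes stayed lower late on HFC under the 3 scalings, while on LFC 2 of 9 were higher with quantile scaling and 4 of 9 with normexp. No paired analysis by replicate number was possible because each diet has 1 array per time point and few titles hold a replicate number. Leaving out the time point block changed no call of the 9 genes. Their signs could not change, since each diet had 1 array at every time point compared. Saturation limits Hp on 14 arrays and Saa3 on 1.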
